A study of Mus musculus with 3 samples.

Results

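Inhibitory neurons were examined in mouse brainstem with and without a diffuse midline glioma graft. They were the barcodes with neuronal transcripts, at least 1 UMI of an inhibitory transmitter gene and few microglial or glial progenitor transcripts. A UMI is a molecular tag that counts 1 captured RNA molecule. The rule kept 292 of 27200 barcodes, 44 in tumour library 1, 85 in tumour library 2 and 163 in the normal library. The cells were chosen by their measured UMIs. Depth had to reach 500 UMIs and 300 genes, with a mitochondrial share of 15% or less. The rule also asked for at least 20 UMIs per 10000 of Snap25, Syt1, Rbfox3, Stmn2 and Meg3 together, with at least 1 UMI from the first 3 of these. Gad1, Gad2, Slc32a1 and Slc6a5 together had to give at least 1 UMI and more UMIs than the glutamate transporter genes Slc17a6 and Slc17a7. The sum of C1qa, C1qb and C1qc had to lie under 30 per 10000, and that of Pdgfra, Olig1 and Sox10 under 5 per 10000. Excitatory neurons, the class set beside them, met the same rule with more Slc17a6 and Slc17a7 UMIs than inhibitory transmitter UMIs, and numbered 201 (20, 26 and 155). Values of these 17 rule genes describe the choice of cells and are given without a test.

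The series concerns syngeneic models of diffuse midline glioma, a childhood tumour of the brainstem. Both tumour libraries came from B6(Cg)-Tyrc-2J/J mice injected intracranially at 6 weeks of age with 100000 cells of the murine line DIPG4423 and sampled 3 weeks later with no treatment. The normal library came from brainstem without tumour, also untreated, and the protocol shared by all samples names B6 mice; its age at sampling and any sham injection are not given in the sources used here. DIPG4423 is 1 cell line, the normal group is 1 library, and the titles name a mouse for each library without saying more about the animals. The libraries held 12118, 10728 and 4354 barcodes with 151906460, 157114723 and 15035292 UMIs, and 10925, 9645 and 3129 barcodes passed the limits on UMIs, genes and mitochondrial share. The normal library, being 1, gives no spread between normal mice. Every p-value against it rests on the spread between the tumour libraries, pooled over genes, and does not cover variation among normal mice.

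Inhibitory neurons of the brainstem release GABA, glycine or both. GABA is made by the glutamate decarboxylases that Gad1 and Gad2 encode, glycine is taken up at the terminal by the transporter GlyT2 that Slc6a5 encodes, and both are loaded into vesicles by the transporter that Slc32a1 encodes. In the developing hindbrain and spinal cord these neurons arise from several progenitor domains. Some give cells with the transcription factors Pax2, Lhx1 and Lhx5, and others give cells with Gata2, Gata3 and Tal1.

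Inhibitory neurons made up a smaller part of the tumour libraries than of the normal library. Their share of kept barcodes was 0.403% in tumour 1 (exact Clopper-Pearson 95% interval 0.293% to 0.540%), 0.881% in tumour 2 (0.705% to 1.09%) and 5.21% in the normal library (4.46% to 6.05%). Excitatory neurons were at 0.183%, 0.270% and 4.95% of kept barcodes. All neurons by the rule, those with no transmitter UMI or a tie included, were at 1.14%, 2.04% and 17.7%. Among inhibitory plus excitatory neurons, the inhibitory share was 68.8% in tumour 1 (55.9% to 79.8%), 76.6% in tumour 2 (67.6% to 84.1%) and 51.3% in the normal library (45.6% to 56.9%). Both tumour values lay above the normal one, and the interval of tumour 1 overlapped that of the normal library by a small margin. This leaves out 61, 86 and 237 neurons with no transmitter UMI or a tie. Of all neurons by the rule, the inhibitory share was 35.2% in tumour 1 and 43.1% in tumour 2, against 29.4% in normal. Their intervals were 26.9% to 44.2%, 36.1% to 50.4% and 25.6% to 33.4%, so that tumour 1 overlapped normal more widely. Without the mitochondrial limit, the normal library gave 218 inhibitory and 336 excitatory neurons, and its inhibitory share of these was 39.4%. With 1 normal library these shares carry no test, and the intervals cover counting error only. Fewer neurons, fewer neurons surviving dissociation and more barcodes of other cells cannot be told apart from a share.

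**Figure D1:**
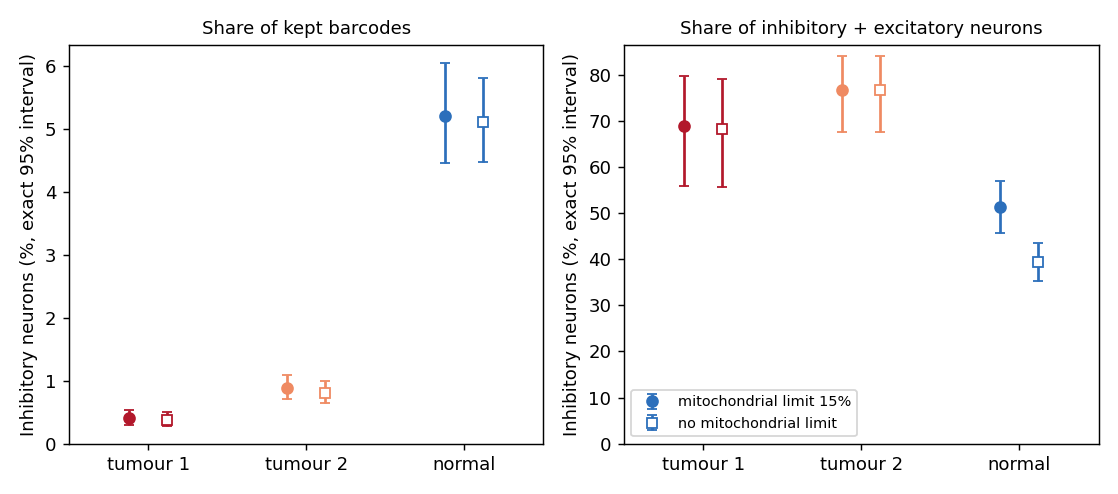
Inhibitory neurons as a percentage of kept barcodes (left) and of inhibitory plus excitatory neurons (right) in each library; filled circles have the 15% mitochondrial limit, open squares have none, and bars are exact 95% intervals. The normal library is highest on the left at 5.21% and lowest on the right at 51.3%, or 39.4% without the limit.

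The members were poor in mitochondrial RNA. Their median depth was 3167, 3341 and 4652 UMIs in tumour 1, tumour 2 and normal, and single cells ranged from 581 to 18127 UMIs. Kept barcodes that were no neuron had median depths of 9159.5, 11782 and 2300 UMIs. Members were thus shallower than these in the tumour libraries and deeper in normal. Median mitochondrial share of members was 0.301%, 0.231% and 0.341%, against 4.75%, 3.28% and 3.43% in kept barcodes that were no neuron. Malat1, a long RNA retained in the nucleus, took 10.4%, 12.1% and 10.8% of member UMIs and 2.41%, 2.07% and 4.48% of UMIs in the other barcodes. Meg3, a long RNA of neurons and a rule gene, took 5.77%, 6.59% and 5.30%. Excitatory neurons had the same features, with median mitochondrial shares of 0.276%, 0.219% and 0.394% and Malat1 shares of 9.83%, 12.0% and 10.1%. Whether these barcodes were nuclei or whole cells was not tested.

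Some members lay close to the limits of the rule. The neuronal sum had medians of 549, 607 and 540.4 per 10000 UMIs, with a lowest member at 20.5 in tumour 2 and the nearest barcode that failed this limit alone at 16.4 in normal. The C1q sum reached at most 29.4 per 10000 in a member and was at least 80.5 in the barcodes that failed it alone. For the progenitor sum 9 members of tumour 1 and 13 of tumour 2 lay just inside the limit, the nearest at 4.86, and the nearest barcode outside was at 5.32. A single transmitter UMI carried the call in 16, 42 and 52 members, or 36.4%, 49.4% and 31.9%. A single UMI of Snap25, Syt1 or Rbfox3 carried the neuronal call in 8, 19 and 29 members. The highest mitochondrial share of a member was 14.3%. Members of different libraries shared no barcode.

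GABA-synthesis transcripts were the most common transmitter transcripts among members. Gad1 or Gad2 was detected in 75% of members of tumour 1, 85.9% of tumour 2 and 89.6% of normal. Slc6a5 was detected in 43.2% (28.3% to 59.0%), 14.1% (7.51% to 23.4%) and 25.8% (19.2% to 33.2%), so that the tumour libraries lay on either side of the normal one. Both a Gad gene and Slc6a5 were detected in 25%, 5.88% and 17.8% of members, and Slc32a1 in 15.9%, 17.6% and 14.1%. After thinning each cell to 1000 UMIs, which left out 0, 3 and 3 members, Gad1 or Gad2 remained in 34.1%, 32.9% and 36.9% and Slc6a5 in 13.6%, 6.1% and 6.88%. As background, 1.65%, 1.31% and 1.61% of C1q-rich barcodes had a Gad1 or Gad2 UMI, at median depths of 5028, 10980 and 1758 UMIs. In UMIs of the gene per 1000000 UMIs summed over the members of a library (CPM), Slc6a5 was at 152 and 51.6 in the tumour libraries and 84.5 in normal. Gad1 was at 152, 179 and 228, and Gad2 at 191, 252 and 219.

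**Figure D2:**
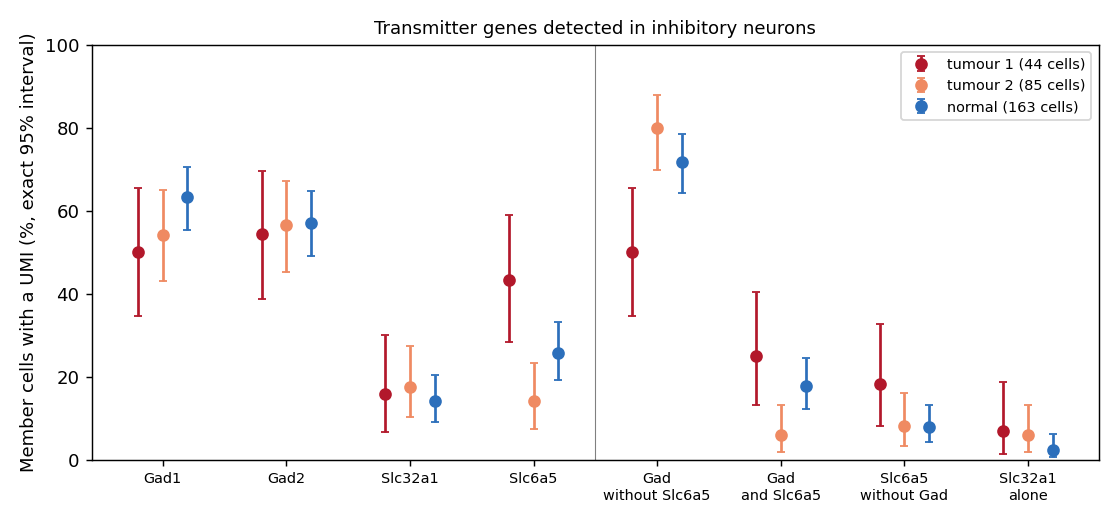
Share of member cells with a UMI of each transmitter gene (left of the line) and of combinations (right) per library, with exact 95% intervals. Slc6a5 was most frequent in tumour 1 at 43.2% and least in tumour 2 at 14.1%, with normal at 25.8% between them.

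Pax2 was rarely detected in the same members as Gata2, Gata3 or Tal1. Pax2 was detected in 14 of 44, 11 of 85 and 24 of 163 members of tumour 1, tumour 2 and normal. At least 1 of Gata2, Gata3 and Tal1 was detected in 3, 14 and 36 members. Of all 292 members, 48 had Pax2 without these factors, 52 had these factors without Pax2, and 1 had both. Lhx1 or Lhx5 was detected in 7, 24 and 47 members; 14 members had it together with Pax2 and 18 together with Gata2, Gata3 or Tal1. Slc6a5 was found in 8 of 14, 5 of 11 and 11 of 24 members with Pax2 in tumour 1, tumour 2 and normal. It was found in 2 of 3, 1 of 14 and 3 of 36 members with Gata2, Gata3 or Tal1, a lower share in tumour 2 and normal and not in tumour 1. Counts of this size are sparse, a member without a UMI may still express the gene, and these are descriptions with no test. Hox genes, which pattern the hindbrain and spinal cord along the body axis, were detected in 47.7%, 34.1% and 27.6% of members. They were detected in 13.2%, 16.1% and 2.28% of C1q-rich barcodes, and in 74.5%, 79.8% and 12.1% of glial progenitor barcodes, so that the tumour libraries were above normal in all 3 cell sets. The part of RNA from other cells in the members' Hox values was not tested. Hoxb3 led them with 11, 19 and 29 UMIs, or 61.9, 57.7 and 33.6 CPM. Pcp2, Car8 or Ppp1r17, genes prominent in cerebellar Purkinje cells, were detected in 1, 4 and 25 members, and the granule cell genes Gabra6 or Cbln3 in 0, 0 and 15. In normal excitatory neurons these cerebellar pairs were detected in 16 and 15 of 155 cells. The list of 16 cerebellar neuron genes as a whole was at 428, 322 and 588 CPM in members and at 76.9, 54.4 and 304 CPM in C1q-rich barcodes, of which 30.2%, 31.1% and 41.2% had a UMI.

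Pax2 and Gata3 are shown here by a promoter each, because they had the largest differences from excitatory neurons among the genes outside the rule that were higher. Each sequence covers 250 bases before to 50 after a RefSeq transcription start on GRCm38.p6, written 5′ to 3′ on the gene's strand. Capitals mark CAGCTG, an E-box form that basic helix-loop-helix factors can bind and that reads the same on both strands. For Pax2 the start shown, on the plus strand at chr19:44755502-44755801, was picked from 3 listed starts because it holds this motif; Gata3 is on the minus strand at chr2:9878551-9878850.
Pax2: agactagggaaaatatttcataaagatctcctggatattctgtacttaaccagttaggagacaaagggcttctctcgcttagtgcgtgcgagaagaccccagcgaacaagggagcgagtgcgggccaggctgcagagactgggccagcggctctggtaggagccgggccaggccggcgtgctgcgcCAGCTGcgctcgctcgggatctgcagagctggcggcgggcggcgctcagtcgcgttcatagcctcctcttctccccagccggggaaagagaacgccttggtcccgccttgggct
Gata3: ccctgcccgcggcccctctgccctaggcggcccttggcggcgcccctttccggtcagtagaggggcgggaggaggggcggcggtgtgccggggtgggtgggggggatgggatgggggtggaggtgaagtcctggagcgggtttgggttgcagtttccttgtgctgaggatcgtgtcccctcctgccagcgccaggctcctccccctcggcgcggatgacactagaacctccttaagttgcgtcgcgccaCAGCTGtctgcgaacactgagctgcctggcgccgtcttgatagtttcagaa
These were the 2 with CAGCTG among 10 promoters searched, those of 7 transmitter and lineage genes, and 16.3% of 32851 mouse promoters of this length hold it, so nothing is read from the match. None of the 10 held AGATAA on either strand, which zinc-finger factors of the Gata3 family can bind and which is present in 11.2% of promoters. The sequences shown held 23 and 22 CG pairs, against a median of 7. A match is a description of letters and no evidence of binding.

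Against excitatory neurons of the same libraries, inhibitory neurons had higher Gata3, Pax2, Lhx1, Nrxn3 and Cacna2d3 and lower Lhx9, Meis2, Nrn1, C1ql3 and Cacna2d1. The calls of Lhx1 and Meis2 were lost under several settings. The comparison asks what separates the classes beyond the genes that chose them. With the library as a block, edgeR's quasi-likelihood test called 11 of 6105 genes outside the rule higher (0.180%) and 18 lower (0.295%). DESeq2 called 2 and 7, and edgeR without the library block called 1 in each direction.

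Gata3, Pax2 and Lhx1, transcription factors of inhibitory lineages, were higher in inhibitory neurons. Gata3 (chr2:9857078-9890034 on GRCm38) had 2, 15 and 45 UMIs in inhibitory neurons of tumour 1, tumour 2 and normal, and 0, 0 and 1 in excitatory neurons. Its summed level was 46.9-fold higher in inhibitory neurons, with an exact counting interval of 8.11 to 1881 (adjusted p = 4.33e-04). Pax2 (chr19:44756045-44837871) had 15, 14 and 30 UMIs against 2, 0 and 1, a ratio of 14.9 with an interval of 4.84 to 74.1 (adjusted p = 0.00369). Every inhibitory level of both genes lay above its excitatory counterpart. With DESeq2 neither was called, with adjusted p-values of 0.161 and 0.172. Lhx1 had 6, 18 and 52 UMIs against 1, 0 and 15, a log2 difference of 1.93 ± 0.46 (SE, adjusted p = 0.0403). Its call was lost without tumour library 2, where the adjusted p was 0.122, and under 4 other settings. In the list of inhibitory lineage factors, 6 of 20 genes had enough counts to be tested, and these 3 rose. Meis2, a homeobox factor with roles beyond inhibitory lineages, fell by 0.74 ± 0.18 (adjusted p = 0.0483). The call of Meis2 was lost with DESeq2, with at least 2 transmitter UMIs, and without the library block or the low-count filter. It was also lost without the normal library and without tumour library 2. The median of the 6 was 1.08, against 0.00 over all genes tested. The low-count filter also keeps genes that are high in the inhibitory sums alone, such as Gata3, so this median partly follows from the filter. Of the 3 tested excitatory lineage factors, Lhx9, a LIM-homeobox factor of dorsal hindbrain neurons, was lower. It had 0, 0 and 5 UMIs in inhibitory and 3, 5 and 56 in excitatory neurons, a log2 difference of -3.91 ± 0.63 (adjusted p = 3.86e-04).

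The synaptic adhesion gene Nrxn3, which encodes a presynaptic receptor, was at 828, 905 and 932 CPM in inhibitory neurons and at 187, 185 and 347 CPM in excitatory neurons. The sums did not overlap, and the log2 difference was 1.77 ± 0.17 (adjusted p = 2.86e-08). It was the only 1 of 18 synaptic adhesion genes called. The zinc transporter gene Slc30a3 had 7, 21 and 38 UMIs against 2, 0 and 3, a log2 difference of 3.12 ± 0.62. Htr2c, a serotonin receptor, was higher by 0.78 ± 0.17 and the RNA-processing factor Las1l by 0.71 ± 0.16. Sox2ot, a long RNA that overlaps Sox2, had 6, 21 and 58 UMIs against 0, 2 and 9, a log2 difference of 2.52 ± 0.46. Adarb2, an RNA-editing family member without known catalytic activity, was at 163, 255 and 263 CPM against 187, 88.1 and 94.4 CPM, called at 1.14 ± 0.23 although tumour 1 went the other way. The calls of Htr2c and Las1l were lost without the normal library, among other settings, and those of Slc30a3 and Sox2ot with DESeq2, where the adjusted p-values were 0.700 and 0.95.

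A pair of calcium channel subunits went opposite ways. Cacna2d3, an alpha2delta subunit, was at 163, 161 and 201 CPM in inhibitory and at 42.4, 26.4 and 63.4 CPM in excitatory neurons, a log2 difference of 1.80 ± 0.24 (adjusted p = 1.54e-05). Cacna2d1, another alpha2delta subunit, was at 22.5, 36.4 and 69.4 CPM against 297, 441 and 503 CPM, a log2 difference of -3.11 ± 0.20 (adjusted p = 7.90e-12). For both genes the 3 inhibitory sums lay apart from the 3 excitatory sums. C1ql3, a secreted synaptic organiser, had 1, 1 and 0 UMIs against 8, 9 and 17, and was 22.5-fold higher in excitatory neurons with an interval of 5.77 to 193 (adjusted p = 0.00249). Nrn1, a membrane-anchored neurite growth protein, had 0, 0 and 16 UMIs against 10, 14 and 150, and was not called with DESeq2 (adjusted p = 0.247). The factor Ebf1 was lower by 2.02 on the log2 scale in inhibitory neurons, the secreted glycoprotein gene Reln by 1.87, the netrin family member Ntng1 by 1.37, the cAMP-regulated phosphoprotein gene Arpp21 by 1.37 and the adhesion receptor Adgrl2 by 0.73. DESeq2 did not call Reln, Ntng1 and Adgrl2, and the calls of Ntng1, Arpp21 and Adgrl2 were lost without the normal library. The long RNAs Neat1 and Miat were lower by 1.66 and 0.64, and the adjusted p of Neat1 was 0.678 without cells that had an Xist UMI.

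The lists of GABA, glycine and glutamate receptors held no calls. Of 15 tested GABA and glycine receptor genes 0 were called, with a median of -0.03, and of 14 glutamate receptor genes 0 were called, with a median of -0.04. Glrb, the glycine receptor beta subunit, differed by 0.03 ± 0.26 and Gria2, an AMPA receptor subunit, by -0.06 ± 0.12. Of 17 potassium and sodium channel genes and 20 genes of vesicle release 0 were called. The 13 mitochondrial genome transcripts all had negative log2 differences with a median of -0.62, and 0 were called. The blood cell genes Ngp, S100a8, S100a9 and Lcn2 were called lower in inhibitory neurons. In tumour 1 S100a8 and S100a9 went the other way, with 2 and 4 UMIs in inhibitory neurons against 0 and 1 in excitatory neurons. Ngp had 35 UMIs in normal inhibitory and 237 in normal excitatory neurons, and its difference of -2.90 became -0.63 without cells holding 1% or more S100a8 and S100a9 UMIs. In normal excitatory neurons 1295 of 1659 S100a9 UMIs came from 1 barcode.

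**Figure D3:**
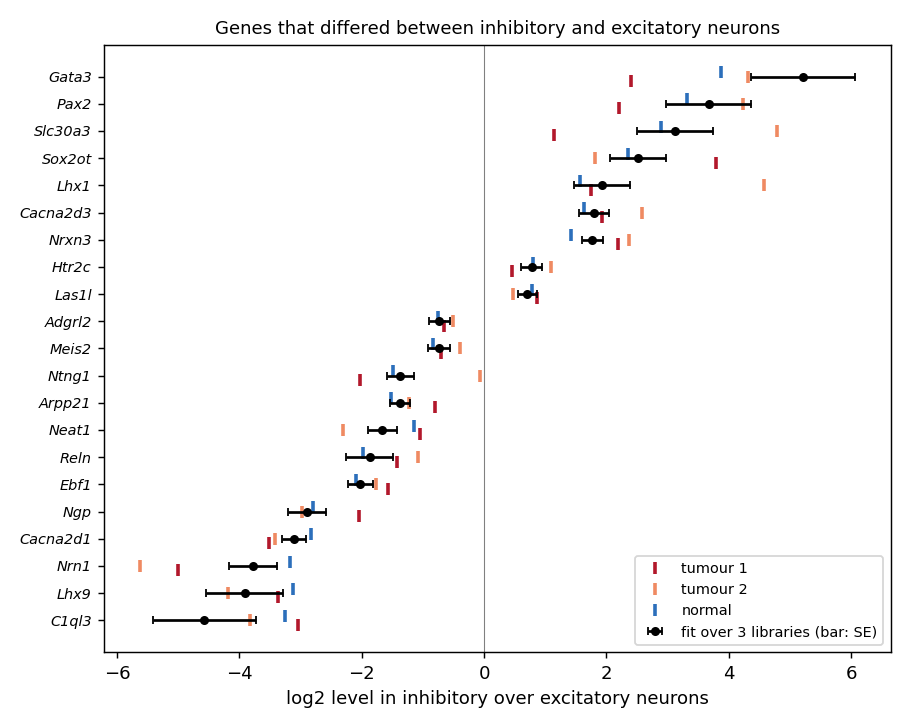
Log2 level in inhibitory over excitatory neurons for 21 named genes; black points are the edgeR estimate over 3 libraries with its SE, and coloured ticks are single libraries computed with a prior count of 1, which pulls low genes toward 0. All ticks lie on the side of their estimate, with Gata3 highest at 5.21 and C1ql3 lowest at -4.57.

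Between tumour and normal libraries, microglial, ferritin and ribosomal protein transcripts were higher in the tumour libraries, and few synaptic genes and 0 listed GABA, glycine or glutamate receptor genes were called. The test called 130 of 7504 genes higher (1.73%) and 35 lower (0.466%) in the tumour libraries, 2.20% in either direction. DESeq2 called 26 and 1, and gave an adjusted p to only 2698 of the 7504 genes. After each cell set was thinned to equal summed depth the counts were 79 and 22, and without cells holding an Xist UMI they were 80 and 19. The fit compares 2 libraries with 1, and its prior degrees of freedom were infinite, so that small p-values rest on a spread pooled over genes. In the kept barcodes that were no neuron, 113 of the 130 genes were also higher in both tumour libraries than in normal and 11 were lower in both, while 27 of the 35 were also lower and 5 were higher. Of all 7504 genes 43.5% were higher in both tumour libraries in these barcodes and 45.2% lower. In excitatory neurons 117 of the 130 were higher in both and 34 of the 35 lower, against 23.6% and 36.8% of all genes. The part that RNA from other cells takes in the members' values was not tested.

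Microglial transcripts were among the genes that rose. Of 9 tested microglia genes 5 rose and 0 fell, with a median log2 change of 2.86 against 0.02 over all genes. The low-count filter keeps a gene that is high enough in any 1 library. Genes low in normal, such as Ctss, were tested through the tumour libraries. The direction of this list and its median thus partly follow from the filter. Apoe, a lipid carrier of glia, had 103 and 430 UMIs in tumour 1 and tumour 2 and 120 in normal, or 579.9, 1306 and 139 CPM. It was detected in 41 of 44 and 83 of 85 tumour members and in 48 of 163 normal members (log2 change 2.86 ± 0.29, adjusted p = 1.47e-19). The other barcodes held 5641, 13171 and 1237 CPM of Apoe. Ctss, a lysosomal protease of microglia, was at 45.0, 152 and 9.26 CPM (3.56 ± 0.56, adjusted p = 6.09e-08); the change was 2.27 without tumour library 2 and 4.10 without tumour library 1. Tyrobp and Fcer1g, which encode immune signalling adaptors, were higher by 3.06 ± 0.49 and 3.16 ± 0.59, and Cst3, a protease inhibitor, by 1.28 ± 0.30. Cst3 was lower in the tumour libraries in barcodes that were no neuron, at 3851, 4453 and 5933 CPM. The change of Tyrobp was 1.48 without tumour library 2 and 3.66 without tumour library 1, and its call was lost with DESeq2 (adjusted p = 0.123). The call of Fcer1g was lost without cells that had an Xist UMI, with an adjusted p of 0.0935. It was also lost with at least 2 transmitter UMIs and in the thinned sums, at adjusted p-values up to 0.174. Both tumour libraries were above normal for each of these genes. The summed level of the 12 microglia genes was 1317, 2475 and 456 CPM in members, and none of the 12 was at 0 in any library. The more specific markers Tmem119 and P2ry12 had 1, 5 and 3 UMIs and 1, 3 and 8 UMIs. C1qa, C1qb and C1qc, which the rule limits, had 20, 58 and 10, 14, 56 and 12, and 8, 34 and 20 UMIs.

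Xist, Cspg4 and Fabp7, which the graft or glial progenitors express, were higher as well. Xist, the X-inactivation RNA, had 31 and 19 UMIs in the tumour libraries and 0 in normal, at least 28.4-fold higher in tumour against 3 counts in the normal library (adjusted p = 6.28e-14). It came from 5 of 44 and 5 of 85 members, and 22 of the 31 and 15 of the 19 UMIs came from 1 cell each. Y-linked genes were detected in 36 of 44, 65 of 85 and 145 of 163 members, and progenitor barcodes of the tumour libraries had Xist at 1047 and 1041 CPM. Of 14 listed glial progenitor and graft genes 5 were tested, 2 rose and 0 fell. Here too genes low in normal, such as Cspg4, passed the low-count filter through the tumour libraries, so the direction partly follows from the filter. Cspg4, a proteoglycan of progenitors, had 12, 11 and 0 UMIs, at least 13.1-fold higher (adjusted p = 0.0304), and Fabp7, a fatty acid binding protein of glial precursors, had 18, 15 and 5 (3.56 ± 0.76). The list summed to 563, 395 and 182 CPM. In the normal library Bricd5, C1ql1, Cdkn2b, Cspg4, Pnlip, Rlbp1, Susd5 and Tnc were at 0, and in the tumour libraries Cdkn2b was at 0 in both, Susd5 in tumour 1 and Tnc in tumour 2. Pdgfra, which the rule limits, had 15, 8 and 0 UMIs. Igfbp2, an insulin-like growth factor binding protein, was at 84.5, 57.7 and 5.79 CPM in members and at 872, 503 and 41.5 CPM in the other barcodes. Its call, like that of Fabp7, was lost in the thinned sums, with adjusted p-values of 0.655 and 0.410. Both calls were also lost with at least 2 transmitter UMIs, at an adjusted p of 0.889 for Fabp7.

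Ferritin and ribosomal protein transcripts also rose. Ftl1, the ferritin light chain, was at 394, 383 and 23.1 CPM (4.11 ± 0.40, adjusted p = 1.40e-21), and Fth1, the heavy chain, at 563, 583 and 63.7 CPM (3.22 ± 0.33, adjusted p = 6.46e-19). The tumour libraries stood far above normal in both. The other barcodes held 4566, 4848 and 915 CPM of Ftl1. Hmox1, which frees iron from haem, had 14, 13 and 2 UMIs, 23.0-fold higher in tumour (exact counting interval 5.78 to 199.7). Cd9, a tetraspanin of glia, was at 191, 79.0 and 6.94 CPM, and Dbi, an acyl-CoA binding protein, at 377, 267 and 37.0 CPM. Ctsz, a lysosomal protease, was at 22.5, 85.0 and 8.10 CPM. Its log2 change of 2.90 was 1.46 without tumour library 2, and its call was lost under 4 settings, with adjusted p-values from 0.0520 without doublets to 0.818 with at least 2 transmitter UMIs. Ribosomal protein genes, a set singled out after their values were seen, gave 63 of the 130 higher genes; 88 were tested, and the called ones rose by 1.03 to 2.86, the highest being Rpl18 at 214, 155 and 25.5 CPM. Ribosomal protein transcripts took 1.55%, 1.68% and 0.589% of member UMIs and 13.2%, 16.3% and 8.55% of UMIs in the other barcodes. Ferritin and ribosomal genes have many near-identical copies in the genome, so their counts are uncertain. Of 20 tested nuclear respiratory chain genes 3 rose, namely Uqcrh, Cox4i1 and Ndufb8, by 1.58, 1.65 and 2.10, and the median of the list was 0.81; of 13 mitochondrial genome transcripts 0 were called.

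**Figure D4:**
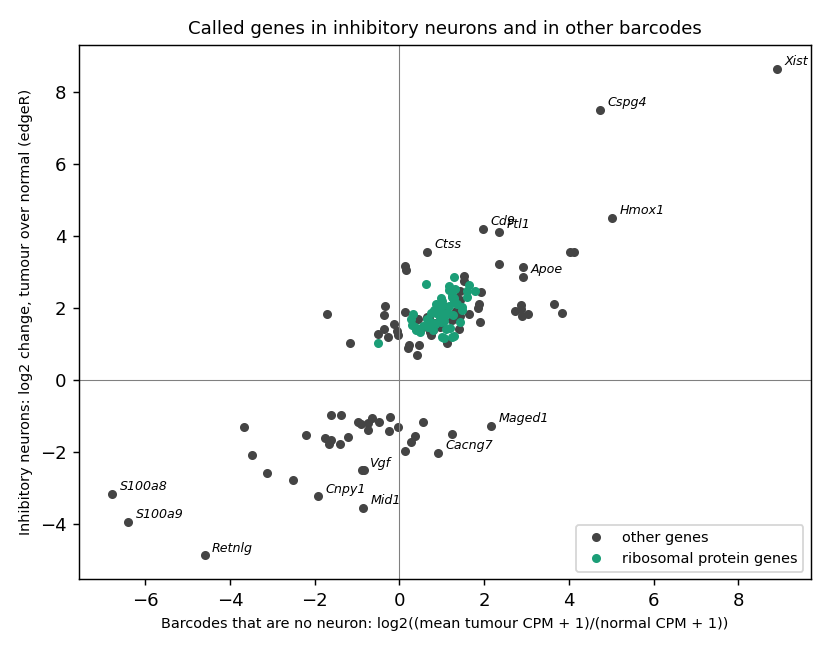
The 165 genes called in inhibitory neurons; the vertical axis is their edgeR log2 change in inhibitory neurons and the horizontal axis the log2 ratio of mean tumour to normal CPM, with 1 added, in kept barcodes that were no neuron. Most points lie in the upper right and lower left, with Xist at the far upper right and S100a8 and S100a9 at the far left, while Maged1 and Cacng7 were lower in inhibitory neurons and higher in the other barcodes.

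Mid1 and Cnpy1 were among the 35 genes that were lower in the tumour libraries. Mid1 (chromosome X), a ubiquitin ligase bound to microtubules, had 0 and 4 UMIs in the tumour libraries and 85 in normal, where they were spread over 59 of 163 members. Normal was at 98.4 CPM, 12.5-fold above both tumour libraries together with an interval of 4.69 to 46.8 (adjusted p = 2.55e-06). Against tumour 2 alone the ratio was 8.10, and against tumour 1, which was at 0, normal was at least 5.82-fold higher. Cnpy1, a canopy family gene known for a part in midbrain and hindbrain development in zebrafish, had 0, 5 and 85 UMIs, spread over 35 normal members. Normal was 9.97-fold higher than both tumour libraries together (4.11 to 31.5, adjusted p = 9.66e-06), and 6.48-fold higher than tumour 2 alone. Excitatory neurons held 0, 1 and 61 UMIs of Mid1 and 1, 0 and 65 of Cnpy1. The other barcodes held 9.78, 8.03 and 16.9 CPM of Mid1 and 1.01, 0.324 and 5.32 CPM of Cnpy1, so that both were lower in tumour there too. In the thinned sums the adjusted p-values were 0.479 and 0.317. DESeq2, which called 1 gene lower among all those tested, called neither Mid1 nor Cnpy1. The cerebellar list was also at its highest sum in normal members, at 428, 322 and 588 CPM, with Gabra6 or Cbln3 in 0, 0 and 15 members; their part in these results was not tested.

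Genes of secretion and synapse were few among those lower. Vgf, a secreted neuropeptide precursor, was at 11.3, 9.11 and 60.2 CPM (log2 change -2.51 ± 0.71, adjusted p = 0.0223). Its call was lost without cells that had an Xist UMI (adjusted p = 0.0925) and with at least 2 transmitter UMIs (0.636). Pcsk1n, an inhibitor of peptide processing, was higher in tumour at 242, 237 and 57.9 CPM (2.10 ± 0.36); among 9 tested neuropeptide and processing genes these were the only calls. Apba3, an adaptor of the Mint family, was at 28.2, 12.1 and 108 CPM (-2.50 ± 0.53, adjusted p = 2.56e-04), and Cacng7, a regulatory subunit of AMPA receptors, at 5.63, 27.3 and 83.3 CPM (-2.03 ± 0.53, adjusted p = 0.00840). The call of Apba3 was lost in the thinned sums (adjusted p = 0.704), and that of Cacng7 there (0.124), with at least 2 transmitter UMIs (0.0664) and without cells that had an Xist UMI (0.0806). DESeq2 did not call Vgf, Apba3 or Cacng7. Cacng7 went the other way in barcodes that were no neuron, at 16.2, 13.5 and 7.43 CPM. Unc13a, which primes synaptic vesicles, was the only 1 of 22 vesicle release genes called, at 152, 216 and 391 CPM (-0.99 ± 0.29, adjusted p = 0.0349). Hsph1, a heat shock protein, was the only 1 of 12 heat shock and unfolded protein genes called (-1.74 ± 0.41), and Stat3, an injury-responsive transcription factor, the only 1 of 8 axon injury genes (1.76 ± 0.50). AC160336.1, a gene without a name, had 2, 4 and 65 UMIs.

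**Figure D5:**
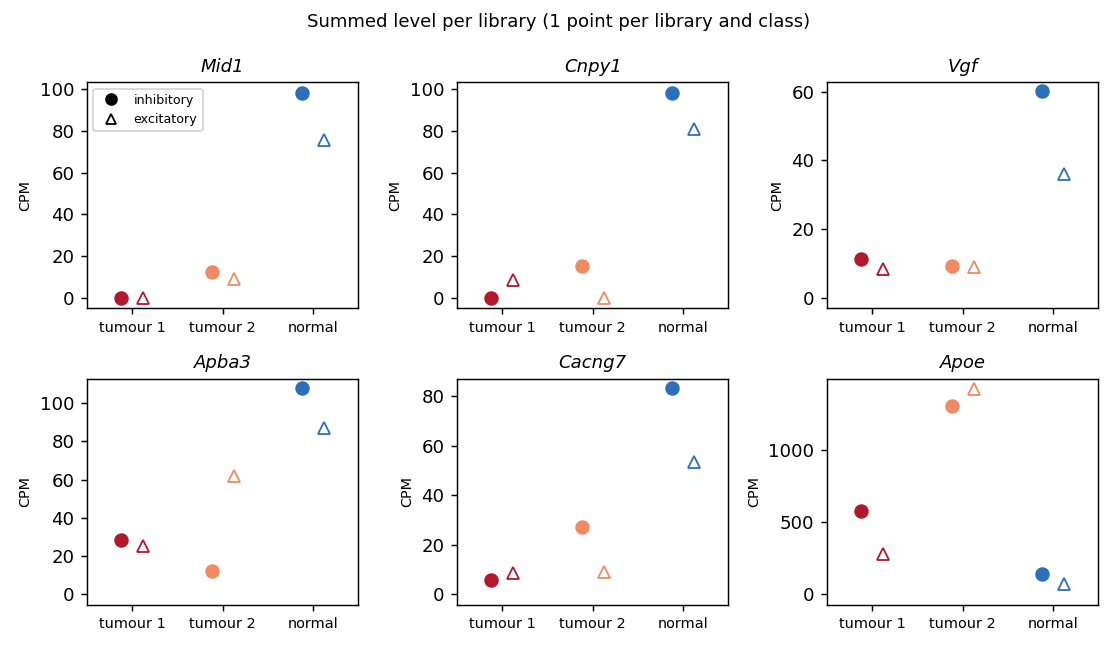
Summed CPM per library of 6 genes in inhibitory (filled circles) and excitatory neurons (open triangles). In both classes normal lies above both tumour libraries for Mid1, Cnpy1, Vgf, Apba3 and Cacng7 and below them for Apoe.

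Blood cell transcripts were higher in normal members. Of 8 tested blood cell genes 3 fell in the tumour libraries and 0 rose. Genes low in the tumour libraries, such as Hbb-bs, passed the low-count filter through the normal library, so this direction partly follows from the filter. The list summed to 56.3, 252 and 1701 CPM, with 12, 8 and 0 of its 17 genes at 0, among them Ngp and Mpo in both tumour libraries. S100a9, a calcium-binding protein of neutrophils, had 4, 18 and 593 UMIs (-3.94 ± 0.34, adjusted p = 1.84e-26) against 409, 615 and 43089 CPM in the other barcodes. Of the normal UMIs 382 came from 1 barcode, and the gene was still found in 115 of 163 normal members. S100a8, its partner, had 2, 35 and 563 UMIs, and was not called with DESeq2. Of its normal UMIs 376 came from 1 barcode. Retnlg, a neutrophil-secreted protein, had 2, 0 and 112 UMIs, and 101 of the normal ones came from 1 barcode. The haemoglobin gene Hbb-bs had 0, 5 and 62 UMIs and has a near-identical copy, and the immunoglobulin gene Ighm had 2, 5 and 54. The call of Hbb-bs was lost in the thinned sums (adjusted p = 0.536). That of Ighm was lost there and under other settings, at adjusted p-values up to 0.805. The oligodendrocyte list summed to 84.5, 36.4 and 196 CPM.

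The transmitter phenotype and receptors gave no calls between tumour and normal. Of 7 tested genes of inhibitory synthesis and transport outside the rule 0 were called. Of 17 GABA and glycine receptor genes 0 were called, and the list summed to 1520.2, 1473 and 1579.9 CPM. Glrb was at 124, 75.9 and 64.8 CPM, and the tumour libraries differed from each other by more than tumour 2 did from normal. Of 16 glutamate receptor genes 0 were called, with Gria2 at 2348, 2166 and 2924 CPM (-0.32 ± 0.19). None of 9 inhibitory lineage factors was called: the log2 difference was -0.61 ± 0.53 for Gata3, -0.31 ± 0.47 for Lhx1 and 0.82 ± 0.50 for Pax2. Of 18 potassium and sodium channel genes, 18 synaptic adhesion genes, 17 axon and cytoskeleton genes, 6 immediate early genes and 5 interferon and class I genes 0 were called. A gene without a call may still have changed by an amount within its error.

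The change between tumour and normal was tested for a difference between inhibitory and excitatory neurons. Of 7378 genes 0 were called with a higher change in inhibitory neurons and 5 with a lower one (0.0678%), and 171 had an unadjusted p under 0.05. DESeq2 called 0, with 3 at an unadjusted p under 0.05. The genes were S100a9, Mcl1, Srgn, Dleu2 and Retnlg, and in excitatory neurons of tumour 2 most of their UMIs came from 1 barcode. Without cells holding 1% or more S100a8 and S100a9 UMIs 1 call was left. Mid1, Cnpy1 and Apoe were not among the calls, and a p that misses the threshold does not show that both classes changed alike.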

How the data were processed

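Single-cell RNA was captured with the 10x Genomics 3′ chemistry from tissue that was ground, depleted of myelin with beads and treated to lyse red cells, per the labels' protocols. The deposited values are raw UMI counts that were not normalized. The matrix headers, per the file headers, name Cell Ranger 6.1.2, and the submitters' processing notes name mm10. The lowest deposited barcode had 500 UMIs. Strand use in counting is not given in the sources used here, so overlapping genes may share reads.

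The members, gene lists and tests were chosen with earlier results of these data known. UMI counts were summed over the cells of a class in each library, and CPM are counts per 1000000 of that sum. Sums were tested with edgeR 4.0.16 in R 4.3.3 (quasi-likelihood, filterByExpr, TMM, Benjamini-Hochberg adjusted p under 0.05 over all genes). Tumour against normal has 1 residual degree of freedom. The 17 rule genes stayed in the fits and were left out of counts. Genes named were the 12 largest changes in each direction with at least 30 UMIs, no predicted-gene name and, between classes, the same direction in all 3 libraries, plus up to 4 genes of a list. Others named for their values are Hmox1, Maged1 and the single genes of lineage lists. The fits were tested before use on simulated counts in which only well-counted genes were changed, so that test does not cover changes in low-count genes. DESeq2 1.42.0, other scalings and filters, Scrublet doublets (scanpy 1.11.5, expected rate 8%), at least 2 transmitter UMIs, at least 1000 UMIs with at most 10% mitochondrial UMIs, and thinned cells were alternatives. A pair of alternatives, without cells holding an Xist UMI and without cells holding 1% or more S100a8 and S100a9 UMIs, was chosen after seeing the data. Doublets called by Scrublet were kept in the main results; they numbered 1, 0 and 3 among members. Intervals are exact Clopper-Pearson 95% intervals, and lower bounds use 3 counts; PCR and capture are not in them. Positions of genes were read from the GENCODE annotation, mouse release 21 on GRCm38, in which 32235 of 32285 identifiers matched, and promoters from RefSeq on GRCm38.p6. The libraries shared 37, 16 and 13 barcodes pairwise. Some genes that met the naming rule are not reported here.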

Additional observations from a re-analysis of the deposited data

Results flagged for a closer look

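In 5 genes the change between tumour and normal differed between inhibitory and excitatory neurons in the edgeR test of that difference, each lower in inhibitory neurons. Retnlg differed by -5.95 on the log2 scale (adjusted p = 9.86e-05), with 2, 0 and 112 UMIs in inhibitory neurons of tumour 1, tumour 2 and normal and 1, 9 and 19 in excitatory neurons. Dleu2, a long RNA, differed by -4.56 (adjusted p = 1.82e-05), with 2, 5 and 25 UMIs against 1, 72 and 27; all 72 came from 1 barcode. Srgn, a proteoglycan of blood cell granules, differed by -4.37 (adjusted p = 0.0299), with 0, 10 and 9 UMIs against 1, 59 and 7, of which 56 of 59 came from 1 barcode. S100a9 differed by -2.65 (adjusted p = 1.68e-04), and 162 of its 168 UMIs in excitatory neurons of tumour 2 came from 1 barcode. Mcl1, a survival factor, differed by -2.59 (adjusted p = 0.0299), and 38 of its 48 UMIs there came from 1 barcode. Without cells holding 1% or more S100a8 and S100a9 UMIs, S100a9 differed by 0.09.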

How the results depend on the processing

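Tumour against normal gave 26 higher and 1 lower gene with DESeq2, 79 and 22 in thinned sums, and 80 and 19 without cells that had an Xist UMI, against 130 and 35; other settings stayed within 1.5 times. In that DESeq2 fit only 2698 of 7504 genes had an adjusted p. Leaving out a tumour library leaves 1 against 1, which gives log2 changes and no calls. Inhibitory against excitatory gave 2 higher and 7 lower genes with DESeq2, 4 and 7 with at least 2 transmitter UMIs, 1 and 1 with no library block, and 17 and 40 with no low-count filter, against 11 and 18; leaving out each library in turn gave 2 to 20 higher and 8 to 58 lower, with 2 and 8 without the normal library and 20 and 58 without tumour 1. The difference between the classes gave 1 higher gene and 0 lower with at least 2 transmitter UMIs, and against 5 lower genes 0 with DESeq2, 0 without cells that had an Xist UMI, 1 without doublets, 1 without cells rich in S100a8 and S100a9 and 3 with no low-count filter. In that test Retnlg reversed to 0.92 with at least 2 transmitter UMIs, and S100a9 to 2.79 there, to 0.48 without cells that had an Xist UMI and to 0.09 without cells rich in S100a8 and S100a9; the cause was not tested. With at least 2 transmitter UMIs the members were 0.256%, 0.446% and 3.55% of kept barcodes, and 57.8% of normal inhibitory plus excitatory neurons. With the stricter cell filter the normal share of kept barcodes was 6.28%. Without the mitochondrial limit the inhibitory share of normal inhibitory plus excitatory neurons was 39.4%. Gad1 or Gad2 was in 97.7% of tumour 2 members with at least 2 transmitter UMIs, and in 34.1%, 32.9% and 36.9% of thinned members; Slc6a5 was in 13.6%, 6.1% and 6.88% of thinned members. No paired analysis of tumour against normal was possible because the normal group is 1 library. The library served as block only between classes. With 44, 85 and 163 members, at median depths of 3167, 3341 and 4652 UMIs, low genes are limited by counts.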

Other observations

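Members were also split by Slc6a5, as a description with no test. Cells with Slc6a5 were deeper, with median depths of 4716, 5129 and 6386 UMIs against 2718, 3299 and 4164. Of 274 listed genes outside the rule, 26 were higher with Slc6a5 in 3 libraries, 86 in 2, 104 in 1 and 58 in 0, and no gene is singled out from this split.

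Peptide and monoamine transcripts marked few members. Penk, an opioid precursor, was detected in 3 of 44, 7 of 85 and 12 of 163 members of tumour 1, tumour 2 and normal, Sst in 3, 1 and 7, Npy in 2, 3 and 4, and Nos1, which makes nitric oxide, in 1, 3 and 16. Slc18a2, the vesicular monoamine transporter, had 1, 25 and 84 UMIs; the 25 came from 1 member and the 84 from 8 members. Th had 1 UMI in 1 normal member, and Dbh had 0 UMIs in all members. With the serotonin synthesis gene Tph2 included, Slc18a2, Th, Dbh and Tph2 together had 1, 27 and 92 UMIs, in 1, 1 and 11 members.

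The gene with the smallest p between tumour and normal, Gm42418, was outside the naming rule as a predicted gene and was chosen after its values were seen. It was at 9571, 12231 and 3262 CPM in inhibitory neurons of tumour 1, tumour 2 and normal (log2 change 1.80 ± 0.15, adjusted p = 9.60e-28) and at 4397, 3919.9 and 5321 CPM in barcodes that were no neuron. It was higher in the tumour members than in the other tumour barcodes, and the source of these counts was not tested.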
